A study of Mus musculus with 9 samples.

Results

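The genes described here encode the beta subunits of the sodium pump (Atp1b1, Atp1b2 and Atp1b3) and the plasma membrane calcium pumps (Atp2b1, Atp2b2, Atp2b3 and Atp2b4). They were chosen by name from the rows of a raw count table whose Ensembl identifiers map to these symbols, which gave 7 genes of 45706 identifiers. RNA was sequenced from tissue labelled as central nervous system of C57BL6/J mice in mid gestation (E9.5 and E14.5, embryonic days) and in young adults (P60, a postnatal day). Each stage had 3 libraries, and the labels give no transgene and no treatment. The E9.5 tissue was the head in front of a cut behind the 4th ventricle, trimmed of most tissue other than neuroectoderm, the E14.5 tissue was brain stripped of its meninges, and the P60 mice were anaesthetised with ketamine and xylazine and perfused with phosphate-buffered saline before dissection. Whether the replicates of a stage were different animals is not stated, and the p-values therefore cover the spread among these libraries alone.

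The sodium pump moves sodium out of the cell and potassium in at the cost of ATP, and so keeps the ion gradients that neurons spend in every action potential. It pairs a catalytic alpha subunit with a beta subunit, a glycoprotein that escorts the alpha subunit to the cell surface and tunes its affinity for ions. Beta 2 is also known as the adhesion molecule on glia. The plasma membrane calcium pumps are single catalytic chains that expel calcium and are switched on by calmodulin. In mammals Atp2b1 and Atp2b4 are found in most tissues, while Atp2b2 and Atp2b3 are found mainly in brain and other excitable or sensory tissue.

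Library totals were 30481975 to 35619093 counts. Of the cell type markers set down for the tissue, all 8 neuron genes were higher at E14.5 than at E9.5, as were 34% of all tested genes. The summed neuron level was 4748 to 5689 CPM in E14.5 libraries and 224.5 to 256.1 CPM in E9.5 libraries. CPM are counts relative to the library total adjusted by the trimmed mean of M values (TMM). At P60 the neuron sum was 7557 to 8293 CPM. The oligodendrocyte sum was 14390 to 16830 CPM in P60 libraries, against 81.72 to 115.6 CPM in E14.5 libraries. Of 7 Purkinje cell and cerebellum markers, 2 were at or near 0 at P60. Gabra6, a GABA receptor subunit of cerebellar granule cells, had 3, 0 and 0 reads in the P60 libraries, and Pcp2, a Purkinje cell gene, had 4, 12 and 0 reads, although the label is central nervous system. The summed level of the whole list was 607.1 to 645.6 CPM at P60, carried by Pvalb, Calb1, Itpr1, Cbln1 and Car8, which other brain regions also express. The first E9.5 library stood apart in muscle genes, with a summed level of 357.8 CPM over 6 muscle genes against 6.464 and 6.285 CPM in the others.

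Upstream sequences are shown for the beta subunit genes that exchanged the leading place between E9.5 and P60, Atp1b1 and Atp1b3. They are the bases before the annotated start, on the minus strand, from RefSeq (GRCm38.p6), and the capitals mark the GC box GGGCGG or its reverse complement CCGCCC.
Atp1b1, chr1:164458356-164458605: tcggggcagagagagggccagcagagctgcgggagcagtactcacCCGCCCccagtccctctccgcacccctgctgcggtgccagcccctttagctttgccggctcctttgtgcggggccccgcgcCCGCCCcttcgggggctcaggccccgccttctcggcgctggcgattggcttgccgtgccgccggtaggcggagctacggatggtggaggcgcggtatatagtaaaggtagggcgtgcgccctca
Atp1b3, chr9:96364443-96364681: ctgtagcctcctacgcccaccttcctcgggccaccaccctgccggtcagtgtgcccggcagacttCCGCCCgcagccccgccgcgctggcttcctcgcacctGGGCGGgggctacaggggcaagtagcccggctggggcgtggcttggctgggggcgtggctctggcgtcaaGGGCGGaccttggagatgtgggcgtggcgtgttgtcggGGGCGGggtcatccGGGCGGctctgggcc
The Atp1b1 stretch of 250 bases was 70.4% G or C with 2 GC boxes. The Atp1b3 stretch, cut to the 239 bases outside the annotated gene, was 73.6% G or C with 5. Atp1b3 has 2 RefSeq starts, and the window of the other, within the gene, was 76.8% G or C with 0 GC boxes. In the table of 32851 such windows of 250 bases, 32.7% held a GC box on either strand and the median G or C content was 52.4%. The motifs TATAAA, TGACGTCA and TTCAGCACC, searched on both strands, were in neither stretch, and 12.4%, 1.5% and 0.3% of all windows held them. The motif CCAAT was found 1 time in the Atp1b1 stretch and not in that of Atp1b3, and 33.8% of all windows held it. RefSeq windows were matched for 5 of the 7 genes (Atp1b1, Atp1b3, Atp2b1, Atp2b2 and Atp2b4). Such matches describe the letters only.

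The stages make 2 consecutive steps, E14.5 against E9.5 and P60 against E14.5. Among the beta subunits, Atp1b1 rose in both steps and became by far the most abundant, Atp1b2 rose in both steps, and Atp1b3 stayed within a narrow range. Levels are TMM-adjusted CPM, as mean ± SD of n = 3 libraries, and fold changes are fitted log2 values ± SE with p-values adjusted over all 17971 genes tested. In order of replicate number, Atp1b1 (ENSMUSG00000026576, chromosome 1, 164437109 to 164458355, minus strand, GRCm38) had 13.9, 11.6 and 10.9 CPM at E9.5. It had 60.2, 87.8 and 77.8 CPM at E14.5 and 1556, 1642 and 1512 CPM at P60. The stages did not overlap, and P60 stood far above both embryonic stages. Atp1b1 was 6.21-fold higher at E14.5 than at E9.5 (log2 2.64 ± 0.18, adjusted p = 4.1e-07 by the edgeR quasi-likelihood test). It was 20.9-fold higher at P60 than at E14.5 (4.38 ± 0.19, adjusted p = 1.7e-08), and 129.6-fold higher at P60 than at E9.5 (7.02 ± 0.22, adjusted p = 6.5e-10). Its last exons overlap those of Nme7, a gene of the opposite strand, over 575 bases, 18.7% of its exon bases, and the strand setting of the counting was not given in the sources used here. Nme7 had 30.3 ± 2.75 CPM at E9.5, 20.1 ± 3.17 CPM at E14.5 and 19.5 ± 1.58 CPM at P60, and per kb of exon its level at E9.5, 5.15 ± 0.468, lay above that of Atp1b1, 3.93 ± 0.511.

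Atp1b2 (ENSMUSG00000041329, chromosome 11, 69599736 to 69605942) had 7.06, 4.87 and 5.33 CPM at E9.5. It had 48.8, 71.6 and 60.05 CPM at E14.5 and 199.0, 357.6 and 131.4 CPM at P60. All stages were separate, and the P60 libraries differed 2.72-fold among themselves. Atp1b2 was 10.46-fold higher at E14.5 than at E9.5 (3.39 ± 0.35, adjusted p = 9.3e-06) and 3.81-fold higher at P60 than at E14.5 (1.93 ± 0.32, adjusted p = 0.00025). Without the second P60 library, where it was highest, the P60 against E14.5 change was 1.46 and kept its call. Over the whole interval Atp1b2 was 39.8-fold higher at P60 than at E9.5 (5.32 ± 0.38, adjusted p = 1.9e-07).

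Atp1b3 (ENSMUSG00000032412, chromosome 9, 96332655 to 96364442), a beta subunit found in many tissues, had 168.3, 147.6 and 145.3 CPM at E9.5. It had 137.6, 95.6 and 94.97 CPM at E14.5 and 179.0, 171.6 and 201.7 CPM at P60. Every E14.5 library lay below every library of the other stages. At E14.5 it was lower than at E9.5 by 0.49 ± 0.17 on the log2 scale (log2 fold change -0.49, adjusted p = 0.025). That call was lost without the first or second E9.5 library, without the second or the third E14.5 library and without the filter on low counts, with adjusted p-values up to 0.11. At P60 it was 1.68-fold higher than at E14.5 (0.75 ± 0.17, adjusted p = 0.0019), a change that came to 0.32 with the transcript length offsets described further on. Between P60 and E9.5 the log2 difference was 0.26 ± 0.17 (adjusted p = 0.17), which did not pass.

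**Figure D1:**
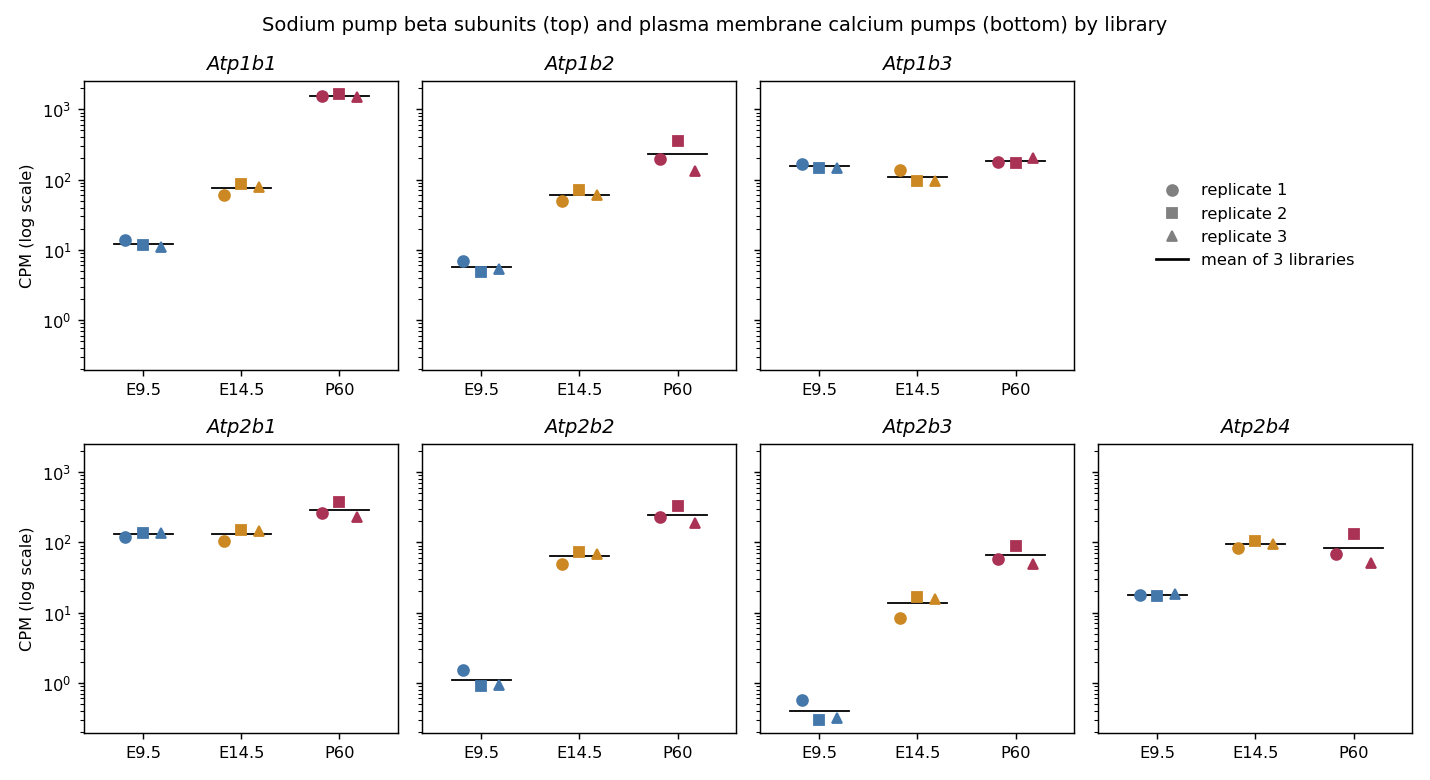
CPM of each gene in each library on a log axis, with stages from E9.5 to P60 on the x axis; symbols mark replicates and bars the mean of 3 libraries. Atp1b1 climbed to 1512 to 1642 CPM at P60, Atp2b2 and Atp2b3 started near 1 CPM or below at E9.5, and Atp1b3 and Atp2b1 moved least.

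To compare genes with each other, CPM were divided by the length of the merged annotated exons in kb. Summed over the 3 beta subunits, the level was 69.7 ± 6.08 CPM per kb at E9.5, 85.0 ± 4.78 at E14.5 and 642.7 ± 44.3 at P60. Within that sum Atp1b3 held 92.4% ± 0.428 at E9.5, 53.7% ± 9.65 at E14.5 and 12.1% ± 1.77 at P60 (SD, n = 3 each). Atp1b1 held 5.63% ± 0.249, 28.9% ± 6.09 and 79.4% ± 2.08 at the same stages. Atp1b2 held 2.01% ± 0.234, 17.4% ± 3.6 and 8.56% ± 3.74, so its share peaked at E14.5 while its level was highest at P60. The ratio of Atp1b1 to Atp1b3 per kb was 0.0581 to 0.064 in E9.5 libraries, 0.339 to 0.712 in E14.5 libraries and 5.81 to 7.42 in P60 libraries. Of the E14.5 libraries, the first held the lowest Atp1b1 share, 21.9%, and the highest Atp1b3 share, 64.7%. Shares over a family are given as a description without a test.

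Among the calcium pumps, Atp2b1 had the highest level per kb at E9.5 and was called higher at P60 against E14.5. Atp2b4 was called higher at E14.5 against E9.5, and Atp2b2 and Atp2b3 were called higher in both steps, the first of them the steeper. Atp2b1 (ENSMUSG00000019943, chromosome 10, 98914406 to 99026143, plus strand), the broadly expressed form, had 117.7, 136.8 and 134.4 CPM at E9.5. It had 102.8, 150.5 and 144.2 CPM at E14.5 and 259.2, 370.4 and 228.0 CPM at P60. The embryonic stages overlapped and the P60 libraries lay above both. The log2 difference of E14.5 from E9.5 was 0.03 ± 0.21 (adjusted p = 0.9), which did not pass, and at P60 Atp2b1 was 2.16-fold higher than at E14.5 (1.11 ± 0.21, adjusted p = 0.00057). Against E9.5 the P60 level was 2.21-fold higher (1.14 ± 0.21, adjusted p = 0.00037).

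Atp2b2 (ENSMUSG00000030302, chromosome 6, 113743831 to 114042613), the form known for fast calcium clearance in Purkinje cells and hair cells, had 1.51, 0.895 and 0.925 CPM at E9.5. It had 49.5, 73.7 and 67.6 CPM at E14.5 and 227.6, 326.3 and 186.3 CPM at P60. No stages overlapped. The first rise was 57.3-fold (E14.5 against E9.5, 5.84 ± 0.31, adjusted p = 7.5e-08) and the second 3.88-fold (P60 against E14.5, 1.96 ± 0.25, adjusted p = 3.1e-05). Of the 7 Purkinje cell and cerebellum markers, Pcp2 and Gabra6 were at or near 0 at P60. Of the other 5, 4 were higher and 0 lower at P60 against E14.5, beside 36.7% and 39.4% of all genes. The part of these markers in the Atp2b2 values was not tested.

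Atp2b3 (ENSMUSG00000031376, chromosome X, 73503086 to 73571005), a second form of the nervous system, had 0.569, 0.298 and 0.319 CPM at E9.5. It had 8.35, 16.8 and 15.8 CPM at E14.5 and 57.8, 88.8 and 48.9 CPM at P60. Like Atp2b2 it was separate in every stage, with rises of 34.3-fold (E14.5 against E9.5, 5.10 ± 0.40, adjusted p = 1.2e-06) and 4.77-fold (P60 against E14.5, 2.26 ± 0.30, adjusted p = 4.9e-05). For both genes the first E9.5 library was the highest of its stage. Over the whole interval Atp2b2 was 222.2-fold and Atp2b3 163.7-fold higher at P60 than at E9.5 (7.80 ± 0.34 and 7.35 ± 0.42, adjusted p = 4.2e-09 and 3.2e-08).

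Atp2b4 (ENSMUSG00000026463, chromosome 1, 133699457 to 133801041), a form also known from human red blood cells, had 17.8, 17.5 and 18.4 CPM at E9.5. It had 82.1, 104.0 and 94.2 CPM at E14.5 and 69.0, 131.1 and 50.1 CPM at P60. The E9.5 libraries agreed closely and lay below all others, while the P60 libraries fell on both sides of those of E14.5. At E14.5 it was 5.22-fold higher than at E9.5 (2.38 ± 0.30, adjusted p = 4.2e-05), and at P60 it was 2.22 ± 0.30 log2 units above E9.5 (adjusted p = 3.5e-05). Between P60 and E14.5 the log2 difference was -0.16 ± 0.28 (adjusted p = 0.61), which did not pass. Without the second P60 library it was -0.65 with an adjusted p of 0.005, so this step rests on 1 library. The summed level of 7 erythroid genes was 308.6 to 404.0 CPM in E9.5 libraries, 800.0 to 1672 CPM in E14.5 libraries and 28.5 to 120.0 CPM in P60 libraries. The part of blood in the Atp2b4 values was not tested.

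**Figure D2:**
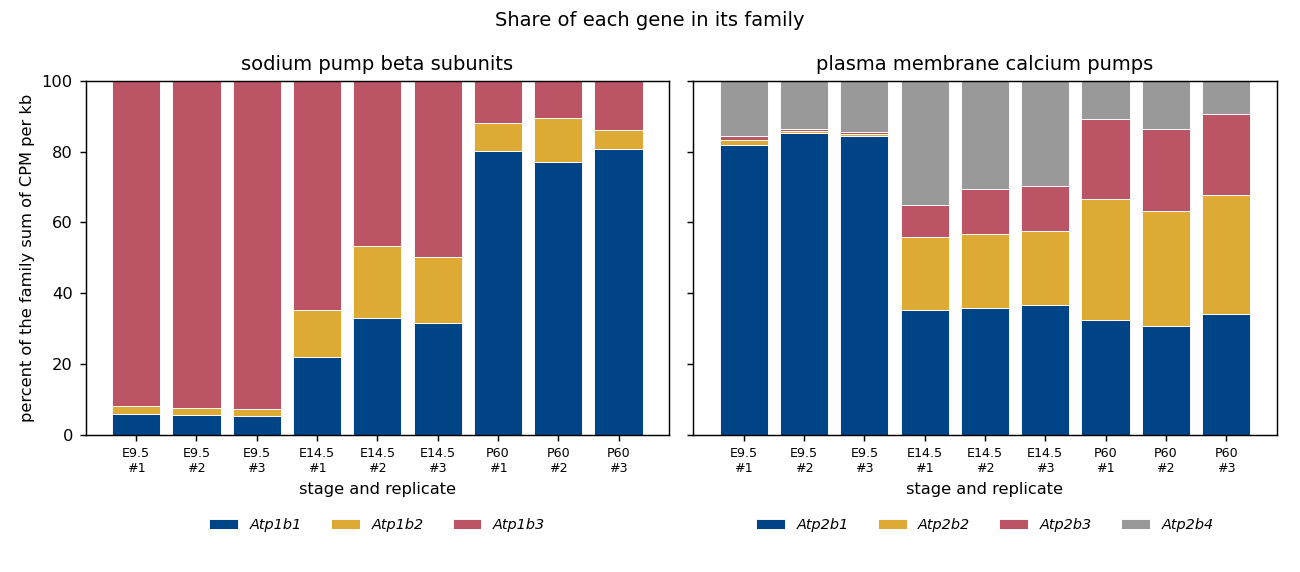
Share of each gene in the summed CPM per kb of its family, 1 stacked bar per library, with stages from E9.5 to P60. Atp1b3 and Atp1b1 held 92.4% and 5.63% at E9.5, and 12.1% and 79.4% at P60, and Atp2b1 held 83.9% of the calcium pump sum at E9.5 and 35.9% at E14.5.

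Per kb, the 4 calcium pumps summed to 10.2 ± 0.629 CPM at E9.5, 24.2 ± 4.51 at E14.5 and 58.7 ± 18.4 at P60. Atp2b1 held 83.9% ± 1.65 of the sum at E9.5, 35.9% ± 0.731 at E14.5 and 32.4% ± 1.69 at P60. Atp2b4 held 14.4% ± 0.967, 31.9% ± 2.82 and 11.2% ± 2.13, with its largest share at E14.5. The share of Atp2b2 was 0.88% ± 0.335, 20.8% ± 0.268 and 33.5% ± 0.819, and that of Atp2b3 0.824% ± 0.372, 11.4% ± 2.06 and 23.0% ± 0.232. At P60 these shares spread less than the levels did. The level of Atp2b2 differed 1.75-fold between the P60 libraries, while its ratio to Atp2b1 per kb was 0.986 to 1.06. With the longest transcript in place of merged exons, Atp2b1 led at every stage (91.2%, 50.6% and 45.4%), so the near tie of Atp2b1 and Atp2b2 at P60 depends on the length used.

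Ordered by level per kb at E9.5, Atp1b3 came first (64.3 ± 5.30 CPM per kb), then Atp2b1 (8.52 ± 0.686) and Atp1b1 (3.93 ± 0.511). Atp2b4 (1.46 ± 0.0373) and Atp1b2 (1.41 ± 0.282) did not differ beyond their spread, nor did Atp2b2 (0.0879 ± 0.0273) and Atp2b3 (0.082 ± 0.0312) at the lower end. At E14.5 the order was Atp1b3 (45.8 ± 10.2), Atp1b1 (24.4 ± 4.53), Atp1b2 (14.7 ± 2.80), Atp2b1 (8.70 ± 1.70), Atp2b4 (7.63 ± 0.895), Atp2b2 (5.04 ± 0.995) and Atp2b3 (2.83 ± 0.957). The 7 genes lay closer together at that stage than before or after, and per kb of merged exons Atp2b1 and Atp2b4 were within each other's spread. At P60 Atp1b1 led with 509.5 ± 21.5 CPM per kb, followed by Atp1b3 (77.1 ± 6.57) and Atp1b2 (56.1 ± 28.4), which overlapped. Below them Atp2b2 (19.6 ± 5.70), Atp2b1 (18.8 ± 4.92) and Atp2b3 (13.5 ± 4.34) overlapped in level across libraries, and Atp2b4 had the lowest mean (6.81 ± 3.46). Its second library, at 10.7 CPM per kb, lay above the third of Atp2b3, at 10.1. Within each P60 library, though, Atp2b3 lay below Atp2b1, at a ratio of 0.677 to 0.757, and below Atp2b2, and Atp2b4 was the lowest of the calcium pumps. These orders and overlaps use merged exons, which for Atp2b1 have 15218 bases against 7130 in its longest transcript. With the longest transcript, Atp2b1 held 50.6% of the calcium pump sum at E14.5 and Atp2b4 22.0%. The places of the calcium pumps therefore depend on the length used.

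Set against all genes, 5 of the 7 were called higher and 1 lower at E14.5 against E9.5, where 64.6% of all tested genes were called, 34% higher and 30.7% lower. At P60 against E14.5, 6 of 7 were higher and 0 lower, against 36.7% and 39.4% of all genes (76.1% in either direction). At P60 against E9.5 the numbers were 6 higher and 0 lower, against 42% and 40.6% (82.6% in either direction). Atp1b1, Atp1b2, Atp2b2 and Atp2b3 were higher in both consecutive steps, a pattern of 14.8% of all genes, and Atp2b4 was higher in the first step without a call in the second, as were 7.6% of all genes. All 7 differed over the 3 stages by the F test, as did 91.5% of all genes, so that count says little about these genes. The median log2 change of the 7 genes was 2.64 at E14.5 against E9.5 and 1.93 at P60 against E14.5, beside 0.03 and -0.06 over all genes. The 2 steps share the E14.5 libraries.

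**Figure D3:**
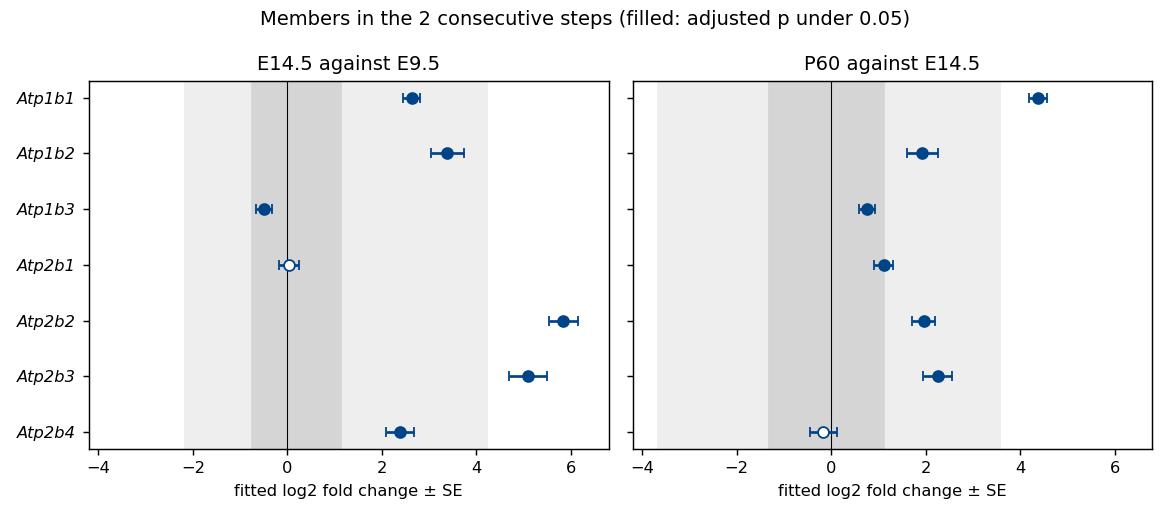
Fitted log2 fold change ± SE of each gene at E14.5 against E9.5 (left) and at P60 against E14.5 (right), filled where the adjusted p passed; the dark band reaches from the 25th to the 75th percentile of all 17971 genes and the light band from the 5th to the 95th. Atp2b2 and Atp2b3 lay beyond the light band in the first step (5.84 and 5.10), and Atp1b1 in the second (4.38).

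Part of the spread among P60 libraries moved with transcript length. Among genes with at least 5 CPM in every stage, those with a longest transcript over 6 kb (1578 genes) had a median of 0.38 log2 units above the stage mean in the second P60 library. In the first and the third P60 library they were at -0.07 and -0.29. Genes under 1 kb (309) ran the other way, at -0.49 in the second library against 0.19 and 0.29. In that library Atp2b1 and Atp2b2, both over 6 kb, were 0.41 and 0.44 above their own stage means. Atp2b3, with 4637 bases, was 0.49 above, while genes of 4 to 6 kb had a median of 0.215. Atp2b4, whose longest transcript has 11725 bases, was 0.77 above and Atp1b2, with 3751 bases, 0.76 above, while genes of 2 to 4 kb had a median of 0.03. Atp1b1 and Atp1b3, with 2580 and 1994 bases, were at 0.07 and -0.10. The first E14.5 library differed the other way, with -0.31 for genes over 6 kb and 0.54 for those under 1 kb, and the calcium pump genes were lowest there. Atp2b3 was at -0.64 in that library, while the median of genes of 4 to 6 kb was -0.10. Atp1b1 and Atp1b2 were lowest there too, at -0.31 and -0.28, although the median of genes of 2 to 4 kb was 0.11.

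**Figure D4:**
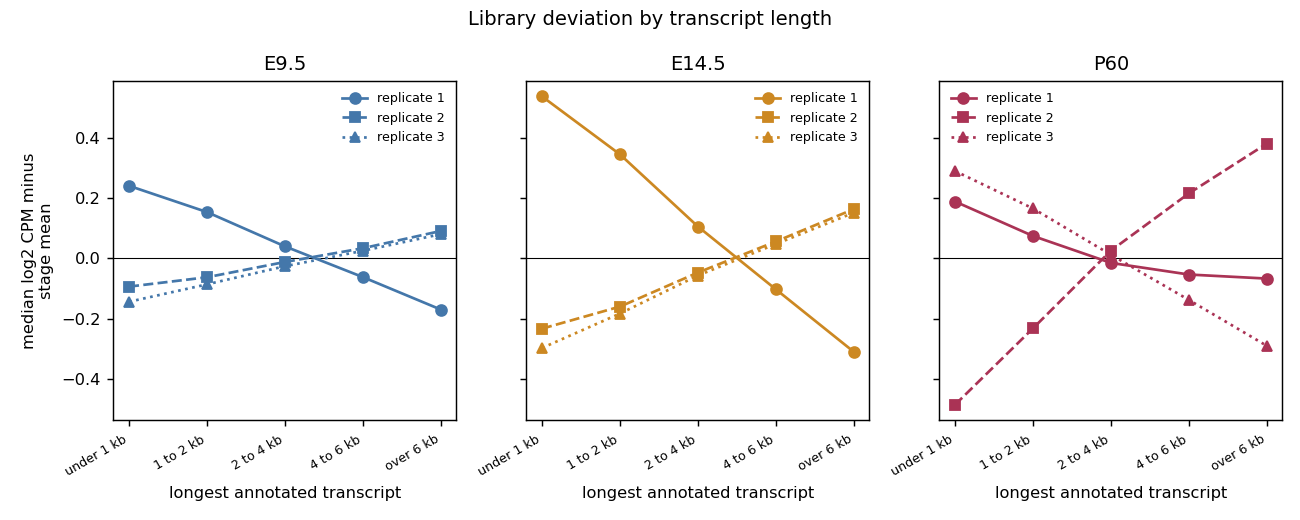
Median log2 CPM minus the stage mean for genes grouped by longest annotated transcript, 1 line per library, in 3 panels from E9.5 to P60. For transcripts over 6 kb the first E14.5 library was at -0.31 and the second P60 library at 0.38.

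Length also moved between stages. At P60 against E14.5 the median log2 change was -1.20 for genes over 6 kb, -0.55 for those of 4 to 6 kb, -0.04 for 2 to 4 kb and 1.07 for those under 1 kb. Atp2b1 (7130 bases) and Atp2b2 (8877 bases) were called higher in a length class with a median below 0. With offsets that level each library by transcript length, an alternative added after seeing the data, their changes were 2.43 and 3.27 in place of 1.11 and 1.96. Atp2b4 was at 1.08 in place of -0.16, with the direction turned and past the threshold (adjusted p = 0.00024, with 0.00024 to 0.95 over its alternatives). For Atp1b1 the range was 4.18 to 4.54 over the alternatives that left no library out. At P60 against E9.5 the offsets gave 2.29 in place of 1.14 for Atp2b1, 8.92 in place of 7.80 for Atp2b2 and 3.31 in place of 2.22 for Atp2b4. The stage and the tissue taken at it cannot be told apart in these differences.

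Of the genes that regulate the sodium pump, the FXYD proteins are small membrane subunits that shift its ion affinity. From a list of 7 FXYD genes and Atp1b4, 6 could be tested. At E14.5 against E9.5, 4 were higher and 1, Fxyd3, was lower, and at P60 against E14.5, 5 were higher and 0 lower, with list medians of 1.48 and 1.70 on the log2 scale. Over all genes 34% were higher and 30.7% lower in the first step, and 36.7% and 39.4% in the second. Fxyd7, known as a brain FXYD protein, had 67.2 ± 5.27 CPM at P60 and 15.8 ± 2.78 CPM at E14.5 (2.09 ± 0.17, adjusted p = 1e-06). At E9.5 it had 1, 3 and 2 reads. Fxyd1, phospholemman, had 74.9 ± 12.003 CPM at P60 and 1.55 ± 0.68 CPM at E14.5 (5.60 ± 0.34, adjusted p = 1.3e-07). Its call at E14.5 against E9.5 (1.20 ± 0.37, adjusted p = 0.014) was lost without the second E9.5 or the first E14.5 library. Fxyd6, another FXYD protein of the brain, was higher early, with 286.2 ± 61.7 CPM at E14.5 and 85.3 ± 9.96 CPM at E9.5 (1.75 ± 0.19, adjusted p = 1.7e-05). Its P60 level of 258.7 ± 44.97 CPM did not pass against E14.5 (-0.15 ± 0.19, adjusted p = 0.5), though with transcript length offsets it was called lower (-0.32, adjusted p = 0.037). Fxyd7 was thus called higher in both steps, as Atp1b1 and Atp1b2 were, and Fxyd6 in the first without a call in the second, as Atp2b4 was.

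Other routes of calcium transport were measured by 14 genes, of which 6 were higher and 4 lower at E14.5 against E9.5 and 9 higher and 1 lower at P60 against E14.5. In the first step these counts lie near the shares over all genes, 34% higher and 30.7% lower, and in the second the shares were 36.7% and 39.4%. The lower ones, named after their values were seen, were Atp2a1, Atp2a3, Atp2c2 and Slc8b1 in the first step and Slc24a5 in the second, each under 20 CPM in every stage. The list medians were 0.07 and 0.87. Slc24a2 and Slc24a3, potassium-dependent sodium-calcium exchangers, rose in both steps. Slc24a2 reached 231.8 ± 78.2 CPM at P60, against 5.27 ± 1.70 CPM at E14.5 (5.46 ± 0.33, adjusted p = 1.2e-07). Slc24a3 reached 151.6 ± 34.4 CPM at P60, against 30.1 ± 3.21 CPM at E14.5 (2.33 ± 0.18, adjusted p = 8.1e-07). Among the sodium-calcium exchangers, Slc8a2 rose in both steps, to 66.6 ± 3.03 CPM at E14.5 and 138.2 ± 57.5 CPM at P60 (1.05 ± 0.25 for P60 against E14.5, adjusted p = 0.0024). Slc8a1 and Slc8a3 were higher at E14.5 than at E9.5 (2.03 ± 0.45 and 1.45 ± 0.24, adjusted p = 0.0024 and 0.00037). Slc8a1 had 10.1, 3.41 and 3.09 CPM at E9.5, and without the first E9.5 library, the one high in muscle genes, its change was 2.81. In the second step neither passed (-0.98 ± 0.43 and -0.13 ± 0.24, adjusted p = 0.061 and 0.64), though Slc8a1 passed as lower under 7 of 17 alternatives, among them the replicate block (-1.01, adjusted p = 0.044).

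The abundant pumps of internal membranes had smaller changes in the reported fit. Atp2a2, the calcium pump of the endoplasmic reticulum, had 436.2 ± 33.5 CPM at E9.5, 311.3 ± 68.3 CPM at E14.5 and 504.2 ± 141.6 CPM at P60. Its log2 difference of E14.5 from E9.5, -0.49 ± 0.22 (adjusted p = 0.076), passed with the replicate block (-0.51, adjusted p = 0.027). Its P60 rise over E14.5 (0.70 ± 0.22, adjusted p = 0.015) lost its call without the second P60 library (0.44, adjusted p = 0.056). Atp2c1, the Golgi pump, had 93.3 ± 6.99, 104.0 ± 18.2 and 129.1 ± 16.7 CPM and passed at P60 against E9.5 (0.47 ± 0.16, adjusted p = 0.02), a call lost without the first E9.5 or the second P60 library. At P60 against E14.5 it did not pass in the reported fit (0.31 ± 0.16, adjusted p = 0.1), but did so with median of ratios and upper quartile scaling and with DESeq2 (0.39 to 0.47). With transcript length offsets the change of Atp2c1 was 1.12 (adjusted p = 8.4e-07), that of Atp2a2 was 1.49 in the same step, and Atp2a2 was also called higher at P60 against E9.5 (0.95, adjusted p = 1.4e-05, in place of 0.21).

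The described genes of proteins that bind the calcium pumps were called higher at P60 against E14.5. Of 4 such genes, 3 were higher at E14.5 against E9.5 and 4 at P60 against E14.5, with medians of 0.73 and 1.97. Over all genes 34% and 36.7% were higher in these steps. Nptn, neuroplastin, an immunoglobulin family subunit of these pumps, had 689.0 ± 71.5 CPM at P60 and 101.1 ± 2.62 CPM at E14.5 (2.77 ± 0.14, adjusted p = 3.9e-08). Bsg, basigin, the related subunit, had 1019.6 ± 151.8 CPM at P60 and 280.4 ± 74.4 CPM at E14.5 (1.86 ± 0.21, adjusted p = 1.2e-05). Calm2 and Calm3, which encode calmodulin, were higher by 2.08 and 1.44 on the log2 scale at P60 against E14.5 (adjusted p = 2.5e-06 and 2.4e-06). Calm2 lost its call at E14.5 against E9.5 (0.58, adjusted p = 0.016) without the second or the third E9.5 library. Transcript length offsets moved several of these partner genes by over 1.5 times at P60 against E14.5 with the calls kept, to 4.69 for Fxyd1, 1.17 for Fxyd7, 1.80 for Slc8a2, 6.78 for Slc24a2, 1.18 for Bsg and 1.37 for Calm2.

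**Figure D5:**
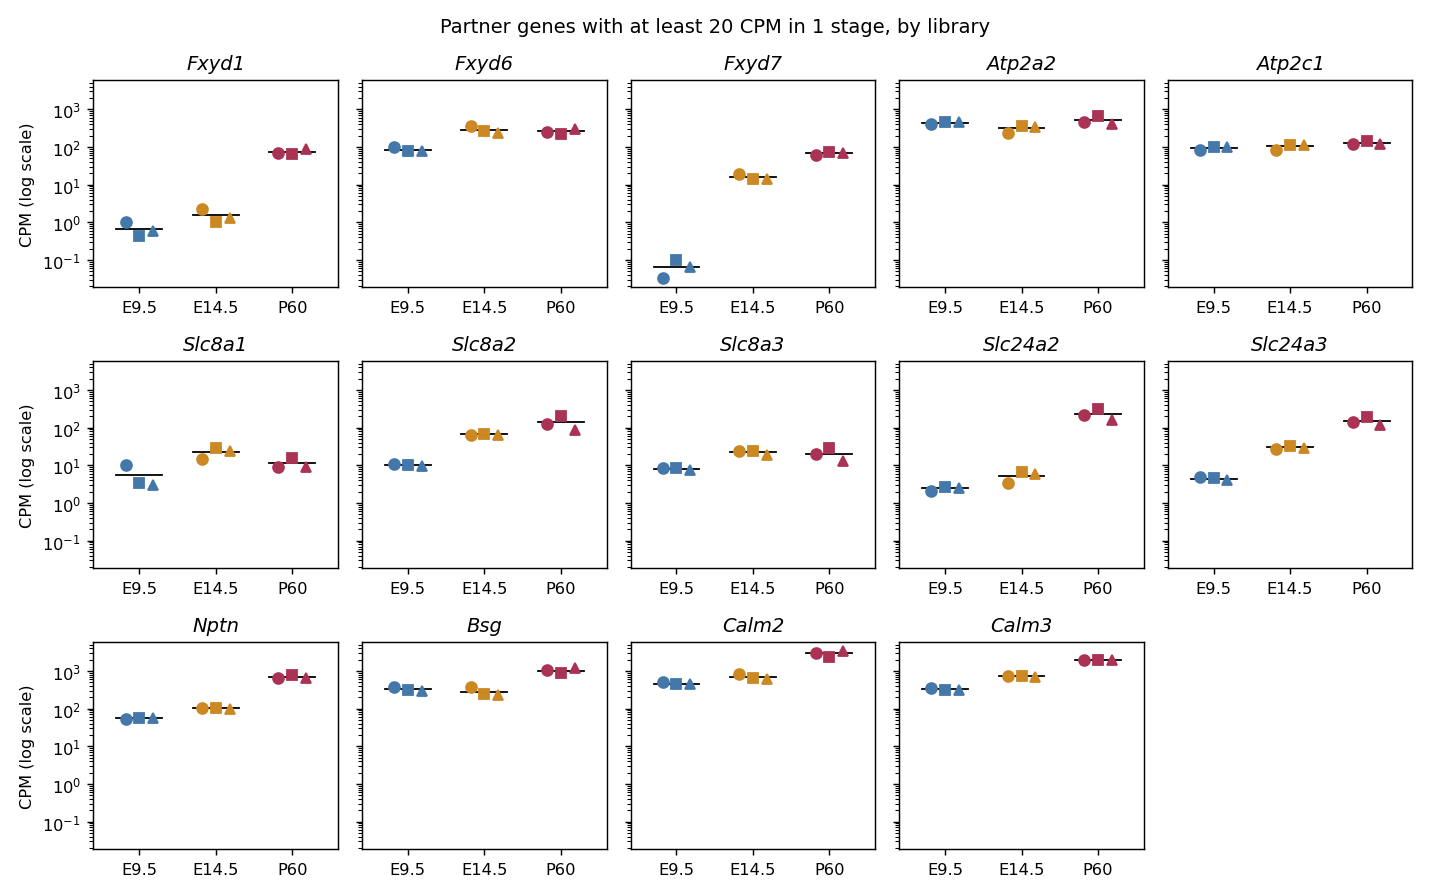
CPM per library on a log axis for 14 partner genes with at least 20 CPM in 1 stage, with symbols and bars as in the plot of pump genes. Fxyd1 and Slc24a2 rose mainly between E14.5 and P60 (5.60 and 5.46 on the log2 scale), and Fxyd6 had 286.2 CPM at E14.5 and 258.7 CPM at P60.

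Genes of most similar course were ranked by the root mean square difference of centred log2 CPM over the 9 libraries, among 10375 genes with at least 20 CPM in 1 stage. Predicted and clone-named genes, and all genes of the sodium pump and plasma membrane calcium pump families, had been left out of these candidates. Nearest to Atp1b1 were Sv2b (0.165 log2 units) and Rapgef4 (0.193), nearest to Atp1b2 were Slc12a5 (0.192) and Csf1r (0.218), and nearest to Atp1b3 were Pdss2 (0.0595) and Cnih4 (0.0671). Atp2b1 lay nearest to Tbc1d9b (0.0896) and Pdxk (0.111), Atp2b2 to Camk2b (0.261) and Cpne4 (0.261), and Atp2b3 to Kcnc4 (0.194) and Ppp2r2c (0.222), while Grm4 (0.165) was among those near Atp2b4. All these genes were measured in the same 9 libraries and share their depth and length effects.

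Several cell type lists moved in the same steps as the pump genes. Neuron markers numbered 8 higher of 8 in the first step and 5 higher and 3 lower in the second. In the first step 34% of all tested genes were higher and 30.7% lower, and in the second 36.7% and 39.4%. Astrocyte markers numbered 8 higher of 8 at P60 against E14.5, with a summed level of 4636 to 4663 CPM in P60 libraries and 433.0 to 588.7 CPM in E14.5 libraries, and none of the 8 lacked reads. All 8 oligodendrocyte and all 8 microglia markers were higher in that step, and all 8 progenitor markers were lower (191.6 to 213.8 CPM at P60, 2319 to 3156 CPM at E14.5). Microglia markers were also 8 higher of 8 at E14.5 against E9.5, and astrocyte markers 6 higher and 1 lower. Oligodendrocyte markers were 4 higher and 1 lower there, and progenitor markers 2 higher and 2 lower. In the first step, 6 of 6 surface ectoderm markers were lower, with sums of 12.8 to 14.4 CPM at E14.5 and 196.5 to 301.1 CPM at E9.5. Their part in the results for the pump genes was not tested, and in whole tissue more cells of a type and more RNA per cell cannot be told apart.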

How the data were processed

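Raw counts of reads, 1 row per Ensembl gene, were deposited for the 9 libraries. Per the labels' protocols, cDNA came from about 1 ng of RNA with a PCR-amplified ultra-low-input kit; the tools named per the submitters' processing notes are Trimmomatic 0.36 and STAR 2.5.2b, with the build mm10. The counter, annotation and strand setting are not given in the sources used here. Symbols and lengths came from GENCODE M21 (GRCm38), which held 45143 of 45706 identifiers.

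The quasi-likelihood model of edgeR 4.0.16 (R 4.3.3) was fitted to all libraries with stage as its factor, after filterByExpr and TMM scaling, with robust dispersions. Tests were two-sided with Benjamini-Hochberg adjustment and a threshold of 0.05. Each SE is the size of the log2 change divided by the root of its F statistic. The method was also run on simulated counts, with few changed genes in balanced directions, a fixed dispersion and no shift by transcript length. That setting is unlike these data, so it cannot show how often calls are false here. Totals of 30481975 to 35619093 make counting error small for abundant genes, and the biological coefficient of variation was 19.9%. PCR copies were not marked. The labels state no pairing, but same-numbered E14.5 and E9.5 libraries correlated in their deviations (r = 0.141 to 0.37), as did 2 differently numbered pairs (0.185 and 0.202), and same-numbered pairs with P60 ranged from -0.224 to 0.337.

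The 7 genes and all lists were chosen with earlier results of these data known. Named genes are the members, list genes with at least 20 CPM in 1 stage, and the 2 nearest patterns per member. Alternatives were 3 scalings, no filter, DESeq2 1.42.0, fits of 6 libraries, a replicate block, leaving out each library and, added later, transcript length offsets. Some genes that these rules would name are not reported here.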

Additional observations from a re-analysis of the deposited data

How the results depend on the processing

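Of 357 refits of the 7 pump genes (17 alternatives in 3 comparisons), 348 kept their side of the threshold, 5 lost a call, 3 gained one and 1 reversed. The alternatives include, for each comparison, fits without a library of the stage not compared. Those keep every library of the comparison, so they can move its fold change little and make the 348 a weak measure of stability. Of the 348, 340 kept their sign and 8, with no call in either fit, did not: 6 of Atp2b1 at E14.5 against E9.5, 1 of Atp2b4 at P60 against E14.5 and 1 of Atp1b3 at P60 against E9.5. The 5 losses were all of Atp1b3 at E14.5 against E9.5: without the low count filter the number of lower pump genes there was 0 in place of 1, and with libraries left out in turn it was 0 to 1. At P60 against E14.5 that number was 0 to 1 with libraries left out, the 1 being Atp2b4 without the second P60 library. The causes of these losses were not tested. The reversal came with transcript length offsets at P60 against E14.5, to 1.08 for Atp2b4. Atp1b3 gained a call at P60 against E9.5 with upper quartile scaling (0.42, adjusted p = 0.041) and with only the 6 libraries of the contrast (0.33, adjusted p = 0.046), within 0.041 to 0.36 over its alternatives. Upper quartile scaling moved the median of all genes by 0.16 at P60 against E14.5 and 0.15 at P60 against E9.5, and library totals moved it by -0.14 at P60 against E14.5.

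With the longest transcript in place of merged exons, shares of calcium pumps at E9.5, E14.5 and P60 were 91.2%, 50.6% and 45.4% for Atp2b1, 0.438%, 7.85% and 15.7% for Atp2b3, and 7.69%, 22.0% and 7.67% for Atp2b4. For Atp2b2 they were 19.5% at E14.5 and 31.3% at P60. Beta subunit shares moved by less than 1 SD with the longest transcript. Library scaling cancels in a share, and leaving out 1 of 3 libraries cannot move a mean by 1 SD, so those settings say nothing here. With the replicate number as a block, the numbers of pump genes called were unchanged, and 6250 and 5871 genes were higher and lower at E14.5 against E9.5, 6789 and 7226 at P60 against E14.5, and 7655 and 7426 at P60 against E9.5. Among the partner genes it changed the call of Atp2a2 and Slc8a1 as given above. The spread between libraries, more than depth, limits these values in most cases, and Atp2b3 rested on 17, 9 and 10 reads at E9.5.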
